A study of Mus musculus with 24 samples.

Results

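Ear fibroblasts of transgenic OSK mice, cultured from 3-month-old animals, were compared after OSK had been switched on and off again with cells labelled only by age, called untreated here. The withdrawal cells had received doxycycline for 6 days and then spent 4 days without it. Each group had 4 libraries, so that 8 of the 24 libraries of the study entered the comparison. The other 16 libraries were OSK cells at 3 months, which had doxycycline for 6 days with no withdrawal, and untreated, OSK and withdrawal cells at 24 months, with 4 libraries each. The mice of all 6 groups carried OSK. The construct, the strain and the promoter behind the transgene are not given in the sources used here, nor is the day on which untreated cells were harvested or any treatment they had. In each 3-month group the libraries are named b1, b2, C and E, and in each 24-month group a, b, d and e, which are replicates 1, 2, 3 and 4. The labels do not say whether these came from separate animals, so p-values measure only the spread between these samples, which may be technical.

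OSK stands for OCT4 (gene Pou5f1), SOX2 and KLF4, transcription factors that together can take a differentiated cell towards a pluripotent state. In a doxycycline-inducible design, a transactivator drives the transgenes only while the drug is present, so that removing it ends the pulse. A short pulse is called partial reprogramming, because cells are returned to culture before pluripotency is reached. Fibroblasts are the main matrix-producing cells of skin and the connective tissue of the ear, which also holds elastic cartilage.

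Values are the deposited normalized counts, in which the reads of each library are multiplied by a factor of its own. The recovered reads ran from 20693177 to 32587822 per library over all 24 libraries, with 28890457 ± 2403863 in the untreated and 26707023 ± 4893482 in the withdrawal libraries at 3 months. Here and below, ± is the SD over 4 libraries. Changes are differences on the log2(value + 1) scale, withdrawal minus untreated, with the standard error (SE) of limma, a linear model with a moderated spread. A gene was called where its limma p, adjusted by the Benjamini-Hochberg method over 14138 genes tested, was under 0.05.

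The 4 withdrawal libraries at 3 months fell into 2 pairs, b1 with b2 and C with E. The chi-square statistic per degree of freedom between libraries was 48.5 within the first pair and 44.7 within the second, but 119.6 to 187.2 across them. Between untreated libraries it was 33 to 64.2. The median distance from the untreated mean was 0.358 and 0.403 on the log2 scale in b1 and b2, and 0.261 and 0.231 in C and E. The first principal component of the 8 libraries (36.7% of the variance) nevertheless placed every withdrawal library (11.1 to 62.4) apart from every untreated one (-43.3 to -24.7). Counts of calls are therefore given below also without b1 and b2 or without C and E where this moves them by over 1.5 times.

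**Figure D1:**
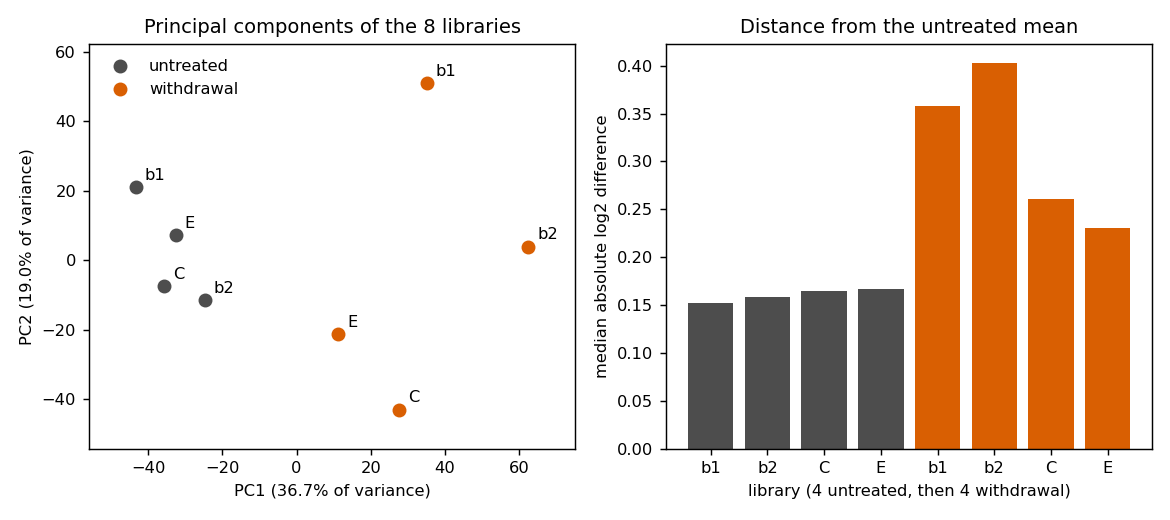
The 8 libraries at 3 months on their first 2 principal components (left; the horizontal axis holds 36.7% of the variance), and each library's median absolute log2 difference from the mean of the untreated libraries, itself left out (right, bars). All 4 withdrawal libraries lie to the right of the 4 untreated ones and are spread widely, with b1 and b2 at 51.0 and 3.92 and C and E at -43.0 and -21.3 on the vertical axis. The bars are tallest for withdrawal b1 and b2.

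The factors themselves were checked first. Pou5f1 had 4.27, 9.33, 1.89 and 2.01 normalized counts in the untreated libraries b1, b2, C and E, and 6.67, 2.94, 12.8 and 9.25 after withdrawal. In the OSK libraries it had 2058 to 3713. Sox2 had 20.3, 17, 6.63 and 6.04 in the untreated and 20, 2.94, 6.41 and 2.52 in the withdrawal libraries, against 2607 to 3856 with OSK. For both genes the untreated and withdrawal values overlapped and lay far below every OSK library. The log2 differences were 0.79 for Pou5f1 (SE 0.606, limma adjusted p = 0.441) and -0.81 for Sox2 (SE 0.524, limma adjusted p = 0.353). Exact two-sided permutation tests over the 8 libraries gave p = 0.257 and p = 0.314. Here 4 libraries against 4 allow 70 arrangements, and the smallest p is 0.0286.

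Klf4 (chr4:55527137-55532475, GRCm38) was the exception, since the untreated fibroblasts already held its transcript. It had 2827, 2683, 2899 and 1485 normalized counts in the untreated libraries and 452, 579, 822 and 805 after withdrawal. No withdrawal library reached the lowest untreated one, so Klf4 fell below the untreated level by 1.89 on the log2 scale (SE 0.312, limma adjusted p = 0.000611). The exact permutation p was 0.0286 over the 8 libraries, and 0.0571 when any 1 withdrawal library was left out. In OSK libraries Klf4 was at 4541 to 7044. The table gives 1 value per gene, so reads of the transgene and of the cell's own Klf4 were not separated. Of 10 tested pluripotency genes, 1 was called: L1td1, an RNA-binding protein of pluripotent cells, whose call was lost without either pair of withdrawal libraries and without untreated C or E or withdrawal b1, C or E alone.

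Across the transcriptome, 1355 of 14138 genes (9.58%) were called, 567 higher (4.01%) and 788 lower (5.57%) after withdrawal. An absolute log2 change of at least 1 was seen in 554 of them, 180 higher and 374 lower, and of at least 2 in 167. Among called genes the median absolute change was 0.816. The 2 groups of libraries did not overlap for 2265 genes (16.0%), with the withdrawal libraries above in 960 (6.79%) and below in 1305 (9.23%). Counts of list members given below are to be read against these shares over all genes. Without withdrawal b1 and b2 the count of calls was 582, of which 505 were among the 1355, and without C and E it was 3059, which kept 1100. Leaving out single libraries also moved the count, to 712 without untreated b1, 873 without untreated C and 631 without withdrawal b2. All 1355 genes kept their sign under every alternative that gave them a value.

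**Figure D2:**
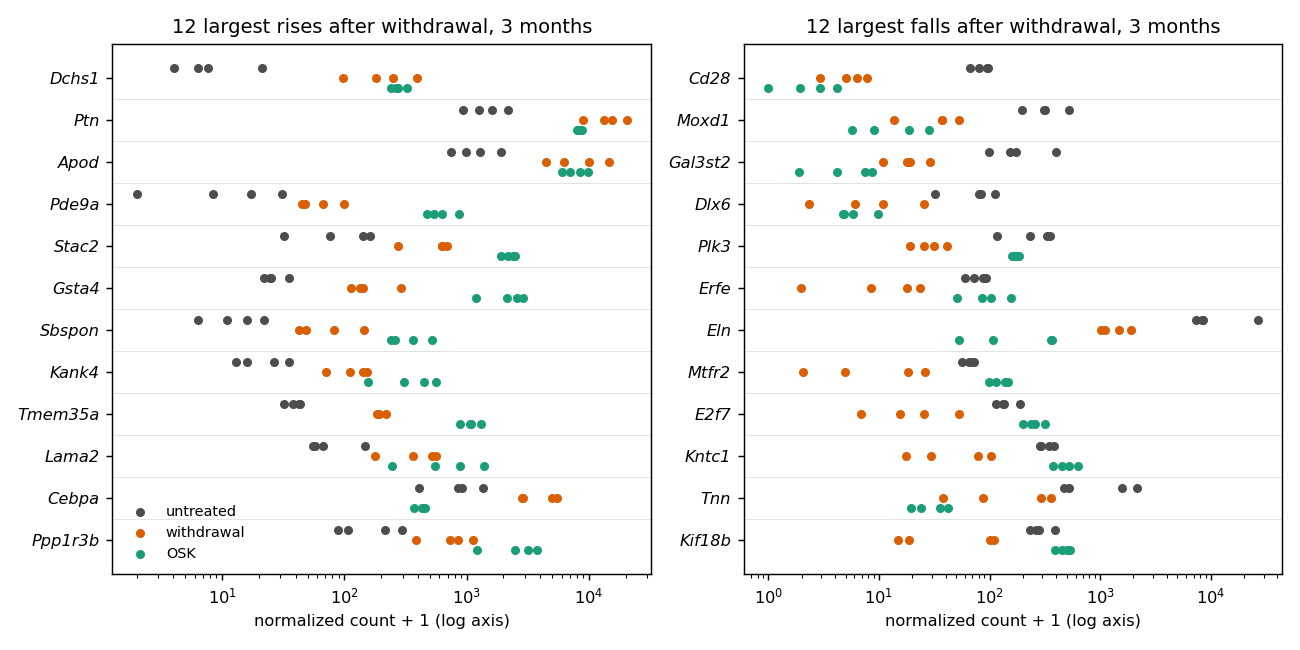
Normalized counts plus 1 (logarithmic axis) of the 12 genes with the largest rises (left) and the 12 with the largest falls (right), among called genes with a group mean of at least 50 and no overlap, predicted genes left out, in each of the 4 untreated, 4 withdrawal and 4 OSK libraries at 3 months. By that choice, all withdrawal libraries lie on the same side of all untreated ones in every gene; the OSK libraries lie beyond, between or opposite them, depending on the gene.

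The largest rise was in Dchs1 (chr7:105752989-105788355, GRCm38), a giant cadherin that binds FAT4 and orients cells within a tissue. Its normalized counts were 5.34, 20.4, 6.63 and 3.02 in the untreated and 97.4, 182, 393 and 247 in the withdrawal libraries. The means were 26.0-fold apart, a rise of 4.67 on the log2 scale (SE 0.487, limma adjusted p = 8.38e-06). In the OSK libraries Dchs1 was at 238 to 325, a range that the withdrawal libraries C and E shared or exceeded. Withdrawal and OSK differed by -0.42 (limma adjusted p = 0.519). Comparisons with OSK share libraries with the main one, so here and below their values stand side by side only. Dchs1 was 1 of 2 genes called higher among 17 tested genes of the Fat and Dachsous polarity pathway, and the count was 1 without b1 and b2.

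Pleiotrophin (Ptn, chr6:36714924-36810179), a secreted heparin-binding growth factor, rose from 1271, 2183, 941 and 1613 to 8998, 20359, 13195 and 15571. Every withdrawal library lay above the OSK range of 7940 to 8764. The change from untreated was 3.28 (SE 0.269, limma adjusted p = 2.33e-07), and that from OSK was 0.74 (limma adjusted p = 0.03). Apod, a lipid-binding lipocalin, rose by 2.79 (1231 ± 496 to 8858 ± 4478, limma adjusted p = 0.000129), and its OSK mean was 7797. Cebpa (chr7:35119293-35121928), a transcription factor of adipocyte and myeloid differentiation, behaved differently. It rose from 847, 917, 410 and 1352 to 5440, 5030, 2857 and 2878, while the OSK libraries stood at 373 to 455. Its change was 2.26 (SE 0.393, limma adjusted p = 0.000959), so that all withdrawal libraries exceeded all untreated and all OSK libraries.

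Other rises were intermediate, above untreated and below OSK. Gsta4 (chr9:78191966-78209349), a glutathione S-transferase that detoxifies the lipid peroxidation product 4-hydroxynonenal, had 23.5, 34, 20.8 and 24.2 normalized counts in the untreated libraries. After withdrawal it had 141, 289, 113 and 133, and with OSK 1199, 2899, 2129 and 2563. Its mean thus stayed 6.61-fold above untreated 4 days after doxycycline was removed, a change of 2.60 (SE 0.281, limma adjusted p = 1.02e-05; exact permutation p = 0.0286, the smallest possible), and was lower than with OSK by a log2 change of -3.72. Tmem35a (chrX:134295225-134305969), a chaperone of nicotinic acetylcholine receptors, varied little between libraries. It rose from 37.4, 42.4, 31.2 and 41.3 to 191, 217, 187 and 182, with OSK libraries at 876 to 1309. The change was 2.33 (SE 0.181, limma adjusted p = 1.41e-07). Stac2, an adaptor protein, rose by 2.60 (101.8 ± 59.4 to 555.5 ± 190), Kank4, a scaffold of the actin cytoskeleton, by 2.44 (21.72 ± 10.2 to 118.1 ± 36.9) and Ppp1r3b, which targets a phosphatase to glycogen, by 2.21 (176.2 ± 98.3 to 776.9 ± 310). Among called genes without overlap and with a group mean of at least 50 normalized counts, predicted genes left out, these 5 and Dchs1, Ptn, Apod and Cebpa were among the 12 with the largest rises. The other 3 were less stable: Pde9a (2.67) and Sbspon (2.48) lost their calls without b1 and b2 and without withdrawal b2 alone, Pde9a also without untreated E and Sbspon also without untreated b1. Lama2 (2.31) lost its call without C and E. Of Sbspon's exon bases, 72.8% lie in another gene, so its reads are uncertain.

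The largest fall was in Cd28, best known as a T cell costimulatory receptor. It fell from 65.1, 96.7, 79.5 and 94.6 to 4, 1.96, 5.34 and 6.73 (-4.02, SE 0.879, limma adjusted p = 0.00536). Its limma adjusted p was 0.0781 without b1 and b2 and 0.13 with a pseudocount of 0.1 in place of 1, so that the call was lost in both. OSK libraries held at most 3.21. The 11 other T cell markers in the table, Cd3e and Cd8a among them, summed to between 1.01 and 11.76 in each of the 8 libraries. Moxd1, a relative of dopamine beta-hydroxylase, fell from 336.2 ± 136 to 34.3 ± 16.2 (-3.32, limma adjusted p = 0.000537). Plk3 (chr4:117128655-117133963), a stress-responsive polo-like kinase, had 332, 350, 229 and 116 in the untreated and 40, 24.5, 18.2 and 30.3 in the withdrawal libraries. The OSK libraries, at 159 to 183, lay within the untreated range, and the fall of Plk3 was 3.07 on the log2 scale (SE 0.401, limma adjusted p = 7.95e-05). Erfe, which encodes the iron-regulating hormone erythroferrone, fell from 77.19 ± 14.8 to 12.08 ± 9.68 (-3.06). Eln, the elastin gene, fell from 7354, 8300, 8494 and 26709 to 1097, 1009, 1481 and 1908 (-3.03, limma adjusted p = 0.00521), a call with adjusted p = 0.0884 without b1 and b2. Dlx6 (-3.15), a homeobox gene, and Tnn (-2.80), a tenascin, were likewise not called without b1 and b2, and Tnn also not without untreated b1 or without withdrawal b2. Gal3st2 (-3.32), a sulfotransferase, has near-identical copies among which reads may be split. The remaining 4 of the 12 largest falls by the same rule were Mtfr2, E2f7, Kntc1 and Kif18b, of which E2f7 encodes a repressor in the cell cycle, Kntc1 a kinetochore protein and Kif18b a mitotic kinesin.

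The list with the largest share of calls was proliferation, which does not hold these 4 genes. Of 32 tested proliferation genes, 28 fell and none rose, where 5.57% and 4.01% of all genes did. The median change was -1.98, against 0.000137 over all genes. All 32 estimates were negative, and for 30 the withdrawal libraries lay entirely below the untreated ones, against 9.23% of all genes. The count was 26 both without b1 and b2 and without C and E. Mki67 (chr7:135689784-135716450), which encodes the proliferation marker Ki-67, had 3525, 2744, 1972 and 2439 normalized counts in the untreated libraries and 687, 182, 339 and 1012 after withdrawal. It fell by 2.52 (SE 0.409, limma adjusted p = 0.000537). The OSK libraries held 4940 to 7688, so the withdrawal cells lay below both other groups. Cenpe, a kinetochore motor, went from 896, 722, 571 and 737 to 155, 48, 79 and 282 (-2.66), and Cenpf, another kinetochore protein, and Bub1, a spindle checkpoint kinase, each fell by 2.50. Replication licensing genes other than Mcm5 fell less, by 1.43 for Mcm2, 1.33 for Mcm3, 0.95 for Mcm6 and 0.64 for Mcm4, whose call was lost without untreated b1 or C or withdrawal b2. The 4 members not called were Mcm7 (-0.45), Pcna (-0.43), Tyms (-0.38) and Ccne1 (-0.18), all of which act in G1 or S phase. The summed normalized counts of the 32 genes were 28656 to 40708 in the untreated and 8073.7 to 15891 in the withdrawal libraries. In bulk RNA, fewer cycling cells and less of these transcripts per cycling cell cannot be told apart.

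**Figure D3:**
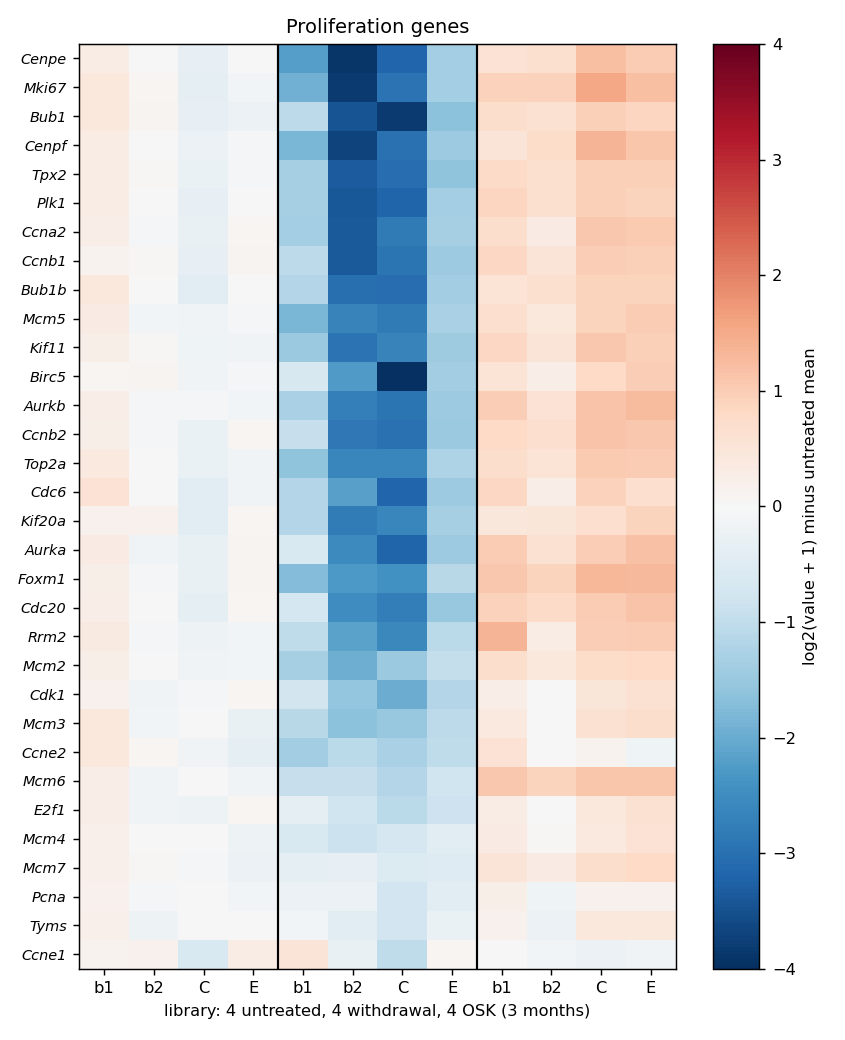
Log2(value + 1) of each library minus the untreated mean for the 32 proliferation genes (rows) in the 4 untreated, 4 withdrawal and 4 OSK libraries at 3 months (columns, left to right); the colour scale ends at 4 in either direction. Nearly every row is lower in all withdrawal columns, with the faintest contrast for Ccne1, Tyms, Pcna and Mcm7.

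Because these genes moved together, the DNA ahead of their starts was examined. The sequences are RefSeq promoter windows of GRCm38.p6, 250 bases before to 50 bases after the start, for 4 of the genes that fell most, read 5' to 3' on the gene's strand. Capitals mark the CCAAT box (letters CCAAT, or ATTGG on the other strand), bound by NF-Y, and the cell cycle genes homology region (TTTGAA, or TTCAAA on the other strand), bound by complexes that repress these genes in resting cells. The windows are chr7:135716330-135716629 (minus strand) for Mki67, chr1:189688037-189688336 (minus) for Cenpf, chr2:127831810-127832109 (minus) for Bub1 and chr3:135212313-135212612 (plus) for Cenpe.
Mki67: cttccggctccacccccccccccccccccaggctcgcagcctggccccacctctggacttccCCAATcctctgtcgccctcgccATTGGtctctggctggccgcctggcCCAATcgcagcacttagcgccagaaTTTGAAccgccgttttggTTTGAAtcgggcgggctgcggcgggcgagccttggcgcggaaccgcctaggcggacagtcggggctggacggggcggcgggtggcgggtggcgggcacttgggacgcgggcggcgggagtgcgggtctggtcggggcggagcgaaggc
Cenpf: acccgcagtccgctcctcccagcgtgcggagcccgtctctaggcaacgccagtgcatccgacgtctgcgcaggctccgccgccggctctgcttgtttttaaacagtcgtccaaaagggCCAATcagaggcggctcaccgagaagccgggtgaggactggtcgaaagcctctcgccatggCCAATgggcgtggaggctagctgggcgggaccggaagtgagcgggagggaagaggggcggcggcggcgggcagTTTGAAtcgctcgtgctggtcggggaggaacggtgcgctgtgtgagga
Bub1: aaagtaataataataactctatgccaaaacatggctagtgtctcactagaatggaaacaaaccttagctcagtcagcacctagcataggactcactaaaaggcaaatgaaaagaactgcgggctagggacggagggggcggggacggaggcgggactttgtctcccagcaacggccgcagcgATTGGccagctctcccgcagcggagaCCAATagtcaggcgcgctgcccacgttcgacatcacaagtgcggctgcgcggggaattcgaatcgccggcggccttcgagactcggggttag
Cenpe: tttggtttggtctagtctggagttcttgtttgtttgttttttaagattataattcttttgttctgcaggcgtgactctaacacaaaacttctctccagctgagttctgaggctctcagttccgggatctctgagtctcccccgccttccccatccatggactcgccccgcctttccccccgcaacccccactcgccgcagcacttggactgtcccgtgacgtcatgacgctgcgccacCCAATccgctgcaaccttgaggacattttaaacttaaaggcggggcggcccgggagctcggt

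The Mki67 window held 3 CCAAT boxes and 2 TTTGAA matches, the Cenpf window 2 and 1, the Bub1 window 2 and 0 and the Cenpe window 1 and 0, and no matches overlapped. Windows were found for 25 of the 32 proliferation genes, 26 windows in all. CCAAT was present in 21 of them (80.8%), against 37.8% of 14203 windows of tested genes, and TTTGAA in 11 (42.3%), against 12.1%. The CCAAT letters were also in 21 of 29 windows (72.4%) of the glutathione S-transferases, a list described below with rises and no fall, and in 12 of 23 (52.2%) of the ATF4 genes. TTTGAA was in 3 (10.3%) and 1 (4.35%) of these. A match of letters is a description and not a measured binding site.

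Among 25 tested p53 targets and cell cycle inhibitors, 5 rose and 1 fell, where 4.01% and 5.57% of all genes did. Cdkn2a (chr4:89274473-89294619), whose locus encodes the inhibitors p16 and p19ARF, rose from 424, 309, 266 and 735 to 1974, 2085, 1035 and 1474 (1.98, SE 0.289, limma adjusted p = 0.000289). Its neighbour Cdkn2b (chr4:89306289-89311032), which encodes p15, rose from 241, 412, 249 and 349 to 1182, 1272, 815 and 720 (1.66, SE 0.175, limma adjusted p = 8.38e-06). Both stood apart from untreated in every library, and their OSK libraries, at 1004 to 1301 for Cdkn2a and 760 to 940 for Cdkn2b, were also above untreated. The table does not separate the transcripts of Cdkn2a. The other members called higher were Trp53inp1 (0.89), Sesn1 (0.52) and Cdkn1b (0.48), and Gdf15, a secreted stress cytokine, fell by 1.07. These 4 calls were less stable: Trp53inp1 was lost without untreated b1, Sesn1 without untreated C or withdrawal C, Cdkn1b without untreated b1 or withdrawal b2 and Gdf15 without withdrawal b1. The p53 target Cdkn1a (p21) was at 3724 ± 768 in untreated and 4235 ± 552 in withdrawal cells, with overlapping libraries (limma adjusted p = 0.619), and Mdm2 was at 1582 ± 104 and 1600 ± 85.8. The count of rises was 3 without untreated b1 and 8 with the replicate number as a block. That of falls was 2 with the block and without untreated E or withdrawal C, and 0 without withdrawal b1 and without b1 and b2.

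Genes induced by ATF4, the transcription factor that answers amino acid shortage and endoplasmic reticulum stress, included 5 that fell and 1 that rose among 23 tested, with a median of -0.31. Chac1 (chr2:119351242-119354326), which degrades glutathione, had 1426, 928, 1289 and 920 in the untreated and 371, 207, 324 and 408 in the withdrawal libraries. It fell by 1.82 (SE 0.242, limma adjusted p = 0.000105), and the OSK libraries, at 150 to 293, were also low. Trib3, a pseudokinase that restrains ATF4, fell from 1386, 1109, 1424 and 797 to 671, 567, 356 and 345 (-1.30, limma adjusted p = 0.00231). Atf3 fell by 1.99, Ddit3 (CHOP) by 0.81 and Shmt2, a mitochondrial serine enzyme, by 0.65, a call lost without withdrawal b2. Atf4 itself was at 7020 ± 937 and 6556 ± 853, and the serine synthesis genes Phgdh (5324 ± 620 and 5273 ± 1379) and Psat1 (4969 ± 600 and 4049 ± 1042) were not called. Vldlr was the member called higher (0.53), a call lost without either pair of withdrawal libraries and when any library other than untreated b1 was left out. In a list of 20 endoplasmic reticulum chaperones and unfolded protein genes, 3 were called lower. The count was 1 without untreated b1 or C or withdrawal b2 or C, 1 in a fit of only the compared groups, 5 without withdrawal b1 and 7 with the replicate block. None was called higher by limma, edgeR or DESeq2, and none reached an unadjusted p under 0.05 in that direction.

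The windows of Chac1 and Trib3, whose falls were the largest of this list among genes also called at 24 months, are shown in the same form, with the CEBP-ATF response element, bound by ATF4, in capitals (TGATGNAA, searched on both strands). They are chr2:119350992-119351291 (plus strand) for Chac1 and chr2:152344011-152344310 (minus strand) for Trib3, 1 match in each.
Chac1: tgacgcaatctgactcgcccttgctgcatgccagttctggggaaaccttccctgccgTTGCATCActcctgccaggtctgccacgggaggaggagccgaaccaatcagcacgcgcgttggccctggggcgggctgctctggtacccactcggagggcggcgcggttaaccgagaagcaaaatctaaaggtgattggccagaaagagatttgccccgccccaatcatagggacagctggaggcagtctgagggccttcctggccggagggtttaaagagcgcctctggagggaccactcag
Trib3: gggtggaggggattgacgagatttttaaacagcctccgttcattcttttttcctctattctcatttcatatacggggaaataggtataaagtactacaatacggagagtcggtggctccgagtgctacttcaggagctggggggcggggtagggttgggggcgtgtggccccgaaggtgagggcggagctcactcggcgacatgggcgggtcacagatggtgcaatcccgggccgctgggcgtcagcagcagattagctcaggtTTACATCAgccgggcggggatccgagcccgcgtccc

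The element was present in 7 of 23 windows of ATF4 genes (30.4%), against 2.25% of the windows of tested genes. All members were counted, and the list was chosen as genes induced by ATF4, so this share does not bear on withdrawal.

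Of 21 tested immediate early genes, which growth factor signals switch on within minutes, 8 fell and none rose. Egr3 fell from 2114, 1622, 1561 and 908 to 432, 261, 535 and 474 (-1.85, limma adjusted p = 0.00141), Nr4a1, an orphan nuclear receptor, from 5461 ± 1732 to 1732 ± 641 (-1.66, with limma adjusted p = 0.0701 without b1 and b2), and Klf2, a shear-responsive factor, by 1.04. Klf2 and Nr4a1 differed in their OSK levels: Klf2 was at 677 with OSK, below its withdrawal mean of 3019, and Nr4a1 at 10323, above untreated. Fos stood the other way, at 5004 ± 1125 in untreated and 8164 ± 2002 in withdrawal cells, and was not called (limma adjusted p = 0.0621), though it was with the replicate block (limma adjusted p = 0.0138) and by DESeq2 (adjusted p = 0.0297). The count of falls was 5 without untreated b1, untreated C or withdrawal b2, 4 without b1 and b2 and 11 without C and E.

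Targets of the Hippo pathway effectors YAP and TEAD included 7 falls and no rise among 20 tested. Nuak2, a kinase that feeds back on YAP, fell from 831, 835, 1062 and 532 to 156, 159, 305 and 170 (-2.06, SE 0.267, limma adjusted p = 7.95e-05). Ccn2 (chr10:24595442-24598683), which encodes connective tissue growth factor, had 86494, 63176, 151440 and 57470 in the untreated and 17078, 16807, 36558 and 22197 in the withdrawal libraries (-1.92, SE 0.292, limma adjusted p = 0.00038). Of its exon bases, 23.2% overlap another gene. The groups of libraries did not overlap for either gene, and the OSK libraries were at 15607 to 32497 for Ccn2 and 789 to 961 for Nuak2, close to withdrawal in the former and to untreated in the latter. Dlc1 (-0.88), Ccn1 (-0.71), Lats2 (-0.65) and Amotl2 (-0.62) fell less, and each call was lost without withdrawal b2. Without untreated C, those of Dlc1, Ccn1 and Amotl2 were lost, without untreated b1 or withdrawal b1 those of Dlc1 and Amotl2, and without untreated b2 that of Amotl2. Of the exon bases of Lats2, 42.4% overlap another gene. Ankrd1 (-2.74) was called, but not without untreated b2, C or E or withdrawal b1 or b2. The count for the list was 3 without untreated C, 4 without withdrawal b1, 2 without withdrawal b2, 2 without b1 and b2 and 9 without C and E. The TEAD letters GGAATG were present in 8 of 17 windows of the list (47.1%), against 12.6% of windows of tested genes. All members were counted, and the list was chosen as TEAD targets, so this share does not bear on withdrawal.

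In the TGF-beta and BMP pathway, 6 of 34 tested genes fell and none rose, where 5.57% and 4.01% of all genes did. Smad7, the inhibitory SMAD that TGF-beta itself induces, fell from 1187, 1112, 1382 and 1248 to 304, 220, 315 and 426 (-1.99, SE 0.222, limma adjusted p = 1.27e-05). The highest withdrawal library was under the lowest untreated one, and the OSK libraries held 533 to 904. The count was 3 without b1 and b2 and 10 with the replicate block. No member was called higher by limma, edgeR or DESeq2, and 1 reached an unadjusted p under 0.05 in that direction.

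**Figure D4:**
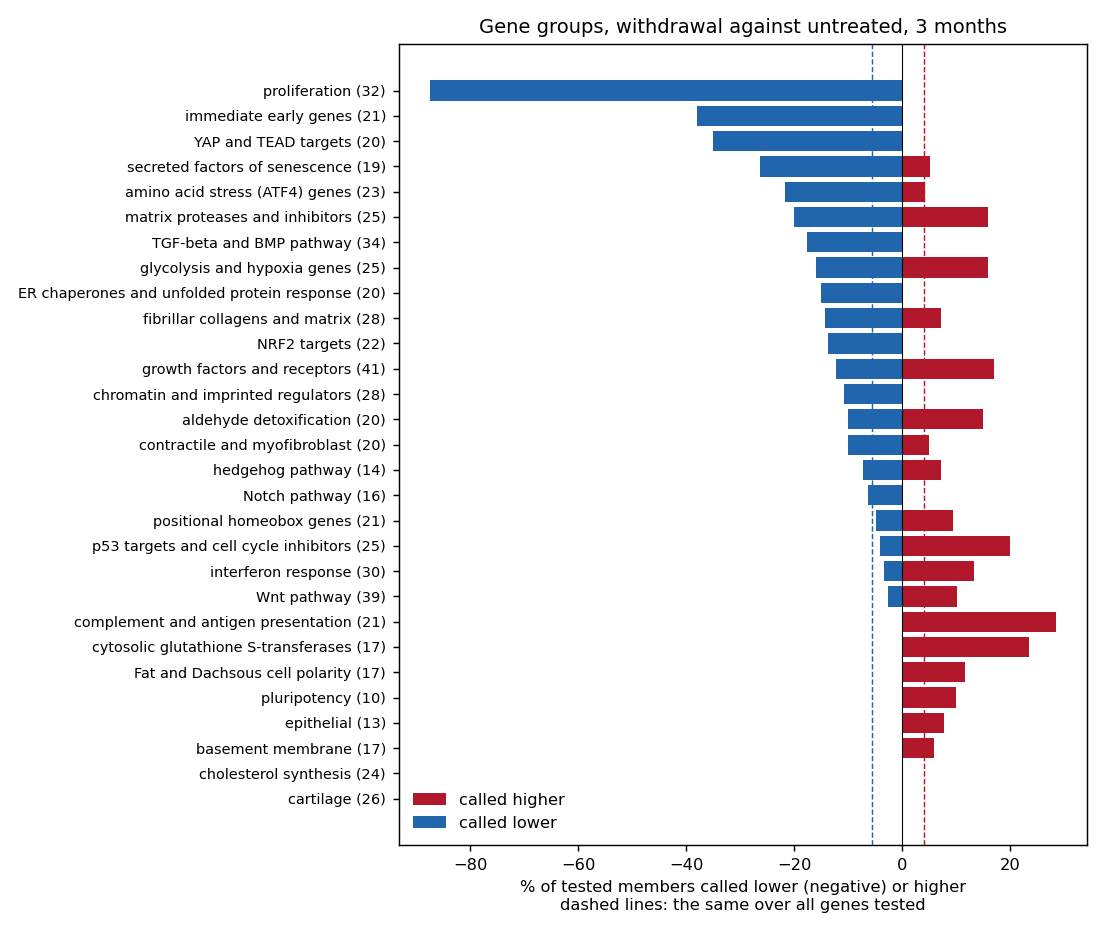
Percent of the tested members of each gene list (number tested in brackets) that were called lower (to the left, negative) or higher (to the right) after withdrawal at 3 months; dashed lines give the same over all 14138 genes, 5.57% lower and 4.01% higher. Proliferation, with 28 of 32 members lower, stands furthest from the dashed lines. In proliferation, YAP and TEAD targets and complement, no member reached an unadjusted p under 0.05 in the direction without a limma call, and edgeR and DESeq2 called 0 there; immediate early genes had 2, of which DESeq2 called 1.

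Of 28 tested fibrillar collagens and matrix genes, 4 fell and 2 rose, where 5.57% and 4.01% of all genes did, and the counts were 2 and 0 without b1 and b2. Besides Eln, Lox, the enzyme that crosslinks collagen and elastin, fell from 416460, 237130, 285470 and 385270 to 188860, 83959, 138590 and 163820 (-1.23, limma adjusted p = 0.00281). The groups did not overlap, and the OSK libraries held 12346 to 27661. The count of rises was 1 without C and E, 0 without untreated C and 1 without any other single library of the 8. Among 25 proteases and inhibitors, 4 were called higher and 5 lower, and both counts moved with single libraries. Those called higher were 1 without untreated b1, 2 without untreated C, withdrawal b2 or withdrawal C, 1 without b1 and b2, 2 without C and E and 1 in a fit of only the compared groups. Those called lower were 3 without untreated b1 and 2 without withdrawal b2 or without b1 and b2. Of 19 secreted factors of senescence, 1 was called higher and 5 lower. Ccl2, a monocyte chemokine, fell from 38.4, 26.3, 18.9 and 25.2 to 5.34, 5.88, 3.2 and 3.36 (-2.36, limma adjusted p = 0.000437), with 233 to 336 in the OSK libraries. The 5 falls of the senescence list were 3 without untreated b1, b2 or C, without withdrawal b1 or b2 and without C and E, and 2 without b1 and b2. Its rise was lost without untreated b1 or C, withdrawal b1 or b2, b1 and b2 together, and in a fit of only the compared groups, and 2 rose with the replicate block.

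Complement and antigen presentation genes gave 6 rises and no fall among 21 tested, with a median of 0.69. Tap2, a subunit of the peptide transporter of class I presentation, rose from 1793, 1721, 1454 and 1693 to 3626, 3694, 3283 and 2372 (0.94, limma adjusted p = 0.000537), and its partner Tap1 from 691, 724, 484 and 503 to 1165, 1146, 1106 and 778 (0.81, limma adjusted p = 0.00149). Both were at about untreated levels in OSK libraries, 1696 to 1854 for Tap2 and 618 to 787 for Tap1. Psmb8, an immunoproteasome subunit, rose by 1.63 (61.02 ± 23 to 186.3 ± 46.4, with limma adjusted p = 0.0576 without b1 and b2) and the complement protease C1s1 by 0.94 (6058 ± 364 to 11666 ± 1701). The class I heavy chain genes H2-K1 (0.05) and H2-D1 (0.51) were not called. Of 30 tested interferon-induced genes, 28 had positive estimates (median 0.63), against 7085 of all 14138 genes tested. But 4 were called higher and 1 lower, where 4.01% and 5.57% of all genes were. Bst2 (1.57), an antiviral membrane protein, was among the 4. The count of rises was 0 without b1 and b2 and in a fit of only the compared groups, and 2 with a pseudocount of 0.1 or no filter on low values. It was 1 without untreated C or withdrawal b2, 2 without untreated b1 or E or withdrawal b1 or C, and 8 without untreated b2. The fall was lost without untreated b1, b2 or C, withdrawal b1 or b2, and b1 and b2 together.

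Detoxification genes rose in part. Of 17 tested cytosolic glutathione S-transferases, 4 rose and none fell, where 4.01% and 5.57% of all genes did. After Gsta4, Gstt1 rose by 1.01 from 331, 468, 310 and 382 to 766, 831, 753 and 642 (SE 0.15, limma adjusted p = 0.000303), with 1728 to 2072 in OSK libraries. Gstm7 (0.78) and Gstm5 (0.55), close relatives among which reads may be split, were not called without withdrawal b2, nor Gstm7 without withdrawal b1. The count for the list was 2 without withdrawal b2 and without b1 and b2. Aldh3a1, a stress-inducible aldehyde dehydrogenase, had 22.4, 22.1, 37.9 and 26.2 in untreated, 145, 82.3, 52.3 and 63 in withdrawal and 10031 to 17472 in OSK libraries. Its rise over untreated was 1.55 (SE 0.26, limma adjusted p = 0.000685). It was 1 of 3 aldehyde detoxification genes called higher among 20 tested, and the count was 5 without C and E. Another 2 were called lower, a count of 0 without untreated E, withdrawal b2 or b1 and b2 and in a fit of only the compared groups, and of 1 without untreated b1 or C or withdrawal b1. Among 22 targets of NRF2, the main regulator of antioxidant genes, none rose and 3 fell, where 4.01% and 5.57% of all genes did. In a list of 22, the lack of a rise is not set apart from a share of 4.01%. Osgin1 was among the falls (456.6 ± 49.2 to 230.5 ± 64, a change of -1.02). The count of falls was 1 without untreated b1 or withdrawal b2. edgeR and DESeq2 called 0 of the 22 higher too, and 1 had an unadjusted p under 0.05 in that direction. Motifs were counted over all members of a list, whatever their change. The antioxidant response element (TGACNNNGC) was present in 8 of 23 windows of NRF2 targets (34.8%), against 14.3% of windows of tested genes. It was in 7 of 21 windows of immediate early genes (33.3%), in 26.1% of ATF4 and 23.1% of proliferation windows and in 3 of 29 windows (10.3%) of glutathione S-transferases. The AP-1 letters TGANTCA were in 4 windows of NRF2 targets (17.4%), against 5.41%, and in 3 of glutathione S-transferases (10.3%). The octamer ATGCAAAT, which OCT4 binds, was in 1 of 29 windows of glutathione S-transferases (3.45%) and 3 of 21 of immediate early genes (14.3%), against 1.35%.

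Of 41 tested growth factors and receptors, 7 rose and 5 fell, where 4.01% and 5.57% of all genes did. Ngfr, the p75 neurotrophin receptor, rose from 4.27, 1.7, 5.68 and 0 to 29.4, 55.9, 42.7 and 16 (3.43, SE 0.574, limma adjusted p = 0.000668), with 256 to 515 in OSK libraries. Fgfr1, a fibroblast growth factor receptor, rose by 0.63 (9979 ± 504 to 15455 ± 1459). Bdnf, a neurotrophin, fell from 116, 130, 212 and 147 to 64, 11.8, 10.7 and 47.1 (-2.51, limma adjusted p = 0.00241), and Hbegf, a ligand of the EGF receptor, fell by 1.39. The 5 falls were 2 when untreated b1, b2 or C or withdrawal b1, b2 or C was left out, without b1 and b2 and with no filter on low values, and 3 with a pseudocount of 0.1 or median centring. Gas1, a hedgehog co-receptor that also arrests growth, rose from 20851, 27779, 21115 and 40090 to 78098, 63543, 79423 and 72134 (1.46, limma adjusted p = 0.00103), while OSK libraries stayed at 16316 to 25865. Rspo3, which amplifies Wnt signals, fell from 72.06 ± 11.7 to 17.02 ± 16.5 (-2.40) and was at most 0.94 with OSK, though the call was lost with a pseudocount of 0.1. Among 25 glycolysis and hypoxia genes, 4 rose and 4 fell. The rises were 2 without b1 and b2, and the falls 2 without untreated b1, withdrawal b2, withdrawal E or C and E. Pfkfb3, which makes the activator of phosphofructokinase, rose from 1127, 1255, 1118 and 1099 to 2990, 3556, 3873 and 2772 (1.51, SE 0.179, limma adjusted p = 2.77e-05), with every withdrawal library above every untreated one.

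Of 28 tested chromatin and imprinted regulators, 3 fell, where 5.57% of all genes did. They were led by Uhrf1 (558.9 ± 94.8 to 140.1 ± 66.4, -2.11), which keeps DNA methylation through replication, and Hells (272 ± 58.6 to 86.15 ± 31.1, -1.70), a remodeller. The count was 6 without C and E and 7 with the replicate block. limma and edgeR called none higher, DESeq2 and the replicate block called 1, and 1 had an unadjusted p under 0.05 in that direction. None of 24 cholesterol synthesis genes was called by limma in either direction, 3 above and 1 below untreated having an unadjusted p under 0.05, and edgeR and DESeq2 each called 1 higher. With the replicate block, 2 were called higher and 1 lower.

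The labelled cell type was checked against markers. All 17 fibroblast markers passed the filter, with sums of 730960 to 892560 normalized counts in untreated and 875250 to 957590 in withdrawal libraries, and 2 were called higher (Lum, lost without untreated b2, C or E or withdrawal b1 or b2, and Cd34, lost without untreated b1 or C or withdrawal b2, C or E). The count was 1 without either pair of withdrawal libraries and 4 with the replicate block. Cartilage genes were abundant too. Their sum was 540660 to 841830 in untreated and 363980 to 546090 in withdrawal libraries, and none of 26 tested was called by limma. An unadjusted p under 0.05 was reached by 3 below and 1 above untreated, edgeR called 0, DESeq2 called 1 lower and the replicate block called 3 lower. Col2a1, the main cartilage collagen, was at 339160, 184660, 336090 and 285700 and then at 144520, 99253, 169930 and 117730 (-1.10, SE 0.576, limma adjusted p = 0.243), with 3276 to 9749 in OSK libraries. It was called with the replicate block (limma adjusted p = 0.0255) and in a fit of only the compared groups (limma adjusted p = 0.0227). For 9 of 26 tested cartilage genes, Col2a1 included, the withdrawal libraries lay wholly below untreated, a larger share than the 9.23% of all genes tested. For 1 they lay wholly above, against 6.79%. The median change of the cartilage list was -0.55, against 0.000137 over all genes. Sox9, the regulator of chondrocyte fate, had 9856 ± 1071 and 13279 ± 1373. Of 10 adipocyte markers, 1 was called higher (Cebpa), against 4.01% of all genes, and 5 were higher without overlap, against 6.79%. Adipoq had 25.6, 39.9, 8.52 and 9.06 and then 185, 269, 142 and 79.9 (limma adjusted p = 0.148, and 0.0105 with the replicate block and 0.0112 in a fit of only the compared groups). The block and that fit each called 3 of the 10, and the sums were 9371 to 20714 and 19818 to 26071. Smooth muscle and pericyte markers summed to 27820 to 40607 in untreated and 16043 to 28625 in withdrawal libraries, with no limma call among 10; 2 above and 1 below untreated had an unadjusted p under 0.05, edgeR called 0, DESeq2 called 2 higher and 1 lower, and the replicate block called 1 higher and 2 lower. Endothelial (1610.7 to 2429.6 and 1208.1 to 1745.3), macrophage and leukocyte (236.62 to 282.88 and 175.68 to 304.15), keratinocyte (1591 to 1885.7 and 1407.3 to 1658.8) and melanocyte (331.28 to 426.88 and 412.21 to 483.38) markers were sparse and gave no call by limma, edgeR or DESeq2, and an unadjusted p under 0.05 was reached by 2, 1, 0 and 1 of them. The Schwann cell list gave 1, Ngfr. The part of these shifts in the results above was not tested.

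The same comparison at 24 months shares no library with that at 3 months. There, 237 of 14138 genes were called (1.68%), 88 higher (0.622%) and 149 lower (1.05%). Of the genes called at 3 months, 1239 of 1355 (91.4%) had the same sign at 24 months, against 9770 of all 14138 genes tested (69.1%). Of the called genes these were 493 of 567 that rose and 746 of 788 that fell. Their median changes were 0.69 at 3 and 0.25 at 24 months for those that rose, and -0.94 and -0.48 for those that fell. The genes were chosen by their 3-month values, so the smaller medians at 24 months are not a test of age. Called the same way at both ages were 134 genes, 47 higher and 87 lower, which is 9.89% of the 3-month and 56.5% of the 24-month calls, and none was called in opposite directions. Both counts moved widely. In a fit of only the compared groups the calls at 24 months were 10 and the shared ones 7, by DESeq2 they were 640 and 359, and with the replicate number as a block 654 and 379. Among 24-month libraries, leaving out untreated a gave 111 calls and 75 shared, untreated b 59 and 37, withdrawal a 105 and 60, withdrawal b 730 and 351, withdrawal d 93 and 53 and withdrawal e 69 and 44. Without 3-month untreated b1, b2, C or E the shared count was 70, 73, 87 or 86.

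Named genes of that overlap include Dchs1 (4.67 at 3 months and 3.13 at 24 months), Ngfr (3.43 and 5.09), Gsta4 (2.60 and 1.24), Tmem35a (2.33 and 1.79), Cdkn2a (1.98 and 1.41), Cdkn2b (1.66 and 1.15) and Mfsd6 (1.96 and 2.80). Among the falls were Plk3 (-3.07 and -2.12), E2f7 (-2.84 and -2.16), Mki67 (-2.52 and -1.70), Rspo3 (-2.40 and -2.29), Nuak2 (-2.06 and -1.58), Chac1 (-1.82 and -2.32) and Trib3 (-1.30 and -2.13). Of the 32 proliferation genes, 7 were called lower at 24 months, with a median of -1.19, and of the ATF4 genes 5. Some other lists showed no such repeat. The median of interferon-induced genes was 0.63 at 3 and -0.14 at 24 months, and that of complement and antigen presentation genes 0.69 and 0.03. Endoplasmic reticulum chaperones had -0.31 and -0.01. These lists held 0 calls at 24 months, as did the TGF-beta and BMP pathway. Among glycolysis and hypoxia genes, 7 were called lower and 1 higher there. Differences of lists between the ages were not tested. Eln showed no repeat either, with -3.03 at 3 months and -0.36 at 24 months (limma adjusted p = 0.85 at 24 months), where its difference between the ages was not called.

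The difference of the 2 effects was tested as an interaction. It was called for 1 of 14138 genes (0.00707%), Ptn, while 987 genes had an unadjusted p under 0.05. At 24 months Ptn had a mean of 60441 in untreated and 109490 in withdrawal cells, so that the untreated mean at 24 months stood above every withdrawal library at 3 months. Its change was 3.28 at 3 and 0.85 at 24 months, and the interaction was -2.43 (limma adjusted p = 0.0295). That call was lost on leaving out single libraries (3-month untreated b1, C or E, 3-month withdrawal b2 or C, 24-month untreated a or e, 24-month withdrawal b or e). It was also lost without 3-month withdrawal b1 and b2 together and in a fit of only the compared groups (limma adjusted p = 0.116). The difference was -2.64 to -2.23 over all single-library omissions. On recovered reads, edgeR called 0 and DESeq2 40 interactions, and the fit with the replicate number as a block called 23.

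**Figure D5:**
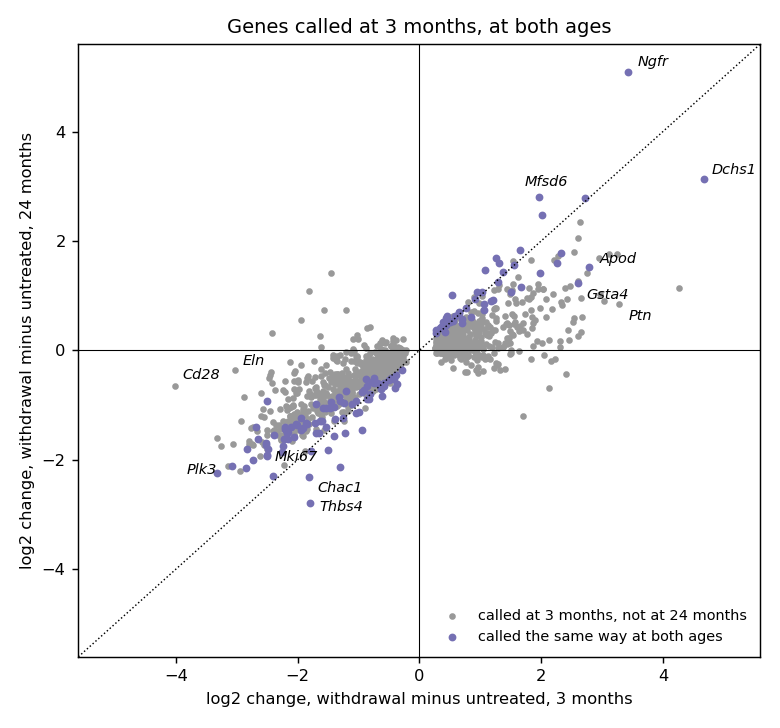
Log2 change of withdrawal against untreated at 24 months (vertical) against that at 3 months (horizontal) for the 1355 genes called at 3 months; purple points are the 134 called the same way at both ages, and the dotted line marks equal change. Most points lie in the lower left and upper right, between the dotted line and the horizontal axis, and Ngfr lies above the line.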

How the data were processed

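Poly(A) RNA of 24 libraries, 4 in each of 6 groups, was sequenced after TRIzol extraction and NEBNext Ultra II preparation, per the labels' protocols. The submitters' processing notes name STAR 2.7.1a, featureCounts 1.6.2 and the builds GRCm38 (mm10) and GRCh38 (hg38). The authors deposited 1 table of 26206 genes holding normalized counts, a signal that is never negative. How it was scaled, and whether strand was used, is not given in the sources used here. The values of a library are whole multiples of 1 step (100% whole within 0.005), which gave back its reads. No mitochondrially encoded gene is in the table, and 6384 genes are at 0 throughout.

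Tested were genes reaching 10 normalized counts in 4 or more libraries, with limma 3.58.1 (R 4.3.3; trend, robust) on log2(value + 1), with 1 coefficient per group over all 24 libraries, two-sided. The script was tested on simulated data. Alternatives were other pseudocounts, filters and scalings, edgeR 4.0.16 and DESeq2 1.42.0 on recovered reads, the 2 groups alone, a replicate block and single libraries left out. Same-numbered 3-month libraries deviated together (r of 0.107 to 0.261 over their pairs, with names shared across groups). However, untreated b2 and OSK b2 reached 0.126 and 0.151 with a differently numbered withdrawal library, and at 24 months untreated and withdrawal replicate 1 gave 0.032. The labels do not state a pairing. The main fit used none, and only the replicate block took libraries of the same age and number together. Named were the OSK genes, Gsta4, the 12 largest rises and falls without overlap and with a group mean of at least 50, up to 5 called members of each list (or, under 2 called, the 2 most abundant), the largest interactions and the genes changed most at both ages; predicted genes were left out. Other members are named to complete a list, and were chosen after their values were seen. Members and lists were chosen with earlier results of these data known. Exon overlaps are from GENCODE M21, and gene positions and promoter windows from RefSeq. The CCAAT box, cell cycle and CEBP-ATF motifs were added after the data were seen.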

Additional observations from a re-analysis of the deposited data

Results flagged for a closer look

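Of 362 groups of 4 libraries examined for the named genes, 12 had 1 library whose gap to the nearest other was above Dixon's critical value for the group's range at the 95% level, and chance alone gives about 1 in 20. In untreated cells the gap was 0.888 of the range for Eln (26709 in E against 7354 to 8494), 0.884 for Klf4 (1485 in E against 2683 to 2899), 0.929 for Thbs2, 0.838 for Lck, 0.878 for Gpr27 and 0.834 for Ccne1. In withdrawal cells it was 0.888 for Stac2 (273 in b1 against 624 to 692), 0.921 for Me1, 0.877 for Aldh2, 0.875 for Nuak2 (305 in C against 156 to 170), 0.874 for Mbp and 0.873 for Tap1 (778 in E against 1106 to 1165). Lck rests on at most 3 reads in any of these libraries.

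The effect of withdrawal on Ptn differed between the ages by -2.43 on the log2 scale, by the limma interaction test given above.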

How the results depend on the processing

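At 3 months, calls of at least 1 on the log2 scale were 554 (180 higher, 374 lower). A fit of only the compared groups gave 1053 calls, 367 of them higher, and kept 818 of the 1355 (60.4%). The main fit shares its spread over all 24 libraries, while the median SD on the log2 scale was 0.299 in withdrawal and 0.177 in untreated libraries at 3 months. DESeq2 called 852 higher. Alternatives chosen after seeing the data gave 582 calls (234 higher, 348 lower) without withdrawal b1 and b2 and 3059 (1478, 1581) without C and E; that the pairs stand apart limits every count. Leaving out single libraries gave 631 to 1666 calls, 240 to 715 higher and 391 to 951 lower.

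Interaction calls were 2 with no filter on low values, 0 with only the compared groups, 0 with edgeR, 40 with DESeq2, 0 without b1 and b2, 56 without C and E and 0 to 3 with single libraries left out. Calls shared by both ages were 82 with no filter, 7 with only the compared groups, 359 with DESeq2, 72 at a change of at least 1 and 37 to 351 with single libraries left out. Calls at 24 months, examined the same way after seeing the data, were 10 with only the compared groups, 640 with DESeq2, 121 at a change of at least 1 and 59 to 730 with single libraries left out. In both counts the lowest was without 24-month untreated b and the highest without 24-month withdrawal b.

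With the replicate block, calls at 3 months were 1831 (771 higher, 1060 lower), calls at 24 months 654, interaction calls 23 and shared calls 379. Of 136 named genes called, none was lost under the block, and Col2a1, Col11a1, Lpl, Adipoq and Fos gained a call.

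The exact permutation p over single-library omissions was 0.0286 to 0.0571 for Klf4, 0.0286 throughout for Gsta4, 0.114 to 0.457 for Pou5f1 and 0.143 to 0.657 for Sox2. Of these 136 genes, 59 lost their call without b1 and b2, 30 without C and E and 59 in at least 1 single-library omission. Genes with values in the text that lost their call without b1 and b2 include, besides those given above, Lum, Ankrd1, Dlc1, Ccn1, Gdf15, Shmt2, Amotl2, Cdkn1b, Lats2, Bst2 and Mcm4, and without C and E Trp53inp1, Sesn1 and Cd34. A fit of only the compared groups lost 22 of the 136 calls, L1td1, Pde9a, Ccn1, Bst2, Cd34 and Amotl2 among them, edgeR 10, with L1td1 and Ankrd1, no filter on low values 12, with Ankrd1 and Vldlr, and a pseudocount of 0.1 lost 6, with Cd28 and Rspo3. The 136 kept their direction in every alternative that gave them a value. Some genes named as not called did not, such as Atf4, H2-K1, Phgdh, Mdm2 and Ccne1. The causes of lost calls were not tested. Genes at a few reads per library, such as Pou5f1 and Pipox in untreated cells, are limited by depth.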
